A study of Mus musculus with 6 samples.

Results

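The BTG, TOB and ZFP36 genes encode small proteins that shorten the life of messenger RNAs and restrain growth. The genes were chosen by symbol, as Btg1, Btg2, Btg3, Tob1, Tob2, Zfp36, Zfp36l1 and Zfp36l2, and the family was picked with earlier results of these data known. The rule itself uses no measured value. Of these 8 genes, 7 had counts among the 12107 genes measured, which gave 21 of 36321 gene regions, and Zfp36 was not analysed here. BTG and TOB proteins share an antiproliferative domain that binds the deadenylase subunits of the CCR4-NOT complex, the main enzyme that removes poly(A) tails. ZFP36 proteins are zinc finger proteins that bind AU-rich elements in the 3′ untranslated regions of target mRNAs and bring the same complex to these mRNAs. Several of these genes are early response genes, induced within minutes by growth factors or stress, and Btg2 (also called Tis21) is known in the embryonic brain as a marker of precursors about to make neurons.

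RNA polymerase II (Pol II) on these genes was followed by ChIP-seq, in which DNA bound to a protein is pulled down and sequenced, here with an antibody against RPB1 (POLR2A), the catalytic subunit of Pol II. Mouse neural precursor cells (NPCs) had been isolated at e13.5 from fetal ganglionic eminences and expanded in 20 ng/ml epidermal growth factor as neurospheres to the second passage. There were 3 libraries from wild-type (WT) and 3 from Armc5(-/-) knockout (KO) fetuses, numbered as replicate pairs, with no treatment in either group. ARMC5 is the substrate adaptor of a ubiquitin ligase for RPB1, and the comparison asks whether Pol II on a gene differs when this adaptor is missing. The strain label of all 6 samples is 129 sv X CD1, whereas the study's methods describe a CD1 x C57BL/6 background, and the deletion is present in every cell of the fetus. Reads were counted in the promoter (from 400 bases before to 100 bases after the transcription start site), in the gene body between the promoter and 100 bases before the transcription end site (TES), and in the TES region (from there to 2000 bases past the end). Levels are given as CPM, the count divided by the library's total over the 3 kinds of region and scaled by the trimmed mean of M values (TMM), and differences as log2 fold changes of KO over WT ± SE. A region was called at an adjusted p under 0.1.

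Libraries held 14528870 to 25199455 counted reads. Promoters took 6.04% to 12.2% of the reads of a library, with the lowest shares in replicate 3 of both groups (6.04% in WT and 6.88% in KO), and the 7 genes together took 0.0292% to 0.0782%. Signal on 4 Y-linked genes came to 124 to 234 unscaled CPM in 5 libraries and 0.619 in WT replicate 3. That library stands apart, and its pair differs in this respect. Armc5 itself was not analysed here, so the genotype labels were not checked through it. Of 12 neural stem cell markers, 11 were measured and none of their gene bodies was called, with Sox2 at a mean of 22.5 CPM in WT and 21.9 in KO and Nes at 51.8 and 58.5 CPM. Of the markers of other cells, 6 of 7 neuronal, 1 of 4 astrocyte, 1 of 4 oligodendrocyte, 1 of 6 microglia and blood, 1 of 5 endothelial and mural and 0 of 4 mesenchymal genes had counts. None of these was called in any region.

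The genes are short and unlinked. In the GENCODE vM21 annotation of GRCm38, Btg1 lies at chr10:96617006-96622809 on the plus strand, Btg2 at chr1:134075170-134079120 on the minus strand and Btg3 at chr16:78332637-78377192 on the minus strand. Tob1 lies at chr11:94211454-94215495 on the plus strand and Tob2 at chr15:81848272-81858796 on the minus strand. Zfp36l1 lies at chr12:80107754-80113013 and Zfp36l2 at chr17:84183931-84187947, both on the minus strand. Spans ran from 3951 bases for Btg2 to 10525 bases for Tob2, with Btg3 apart at 44556 bases. The sources used here do not name the annotation behind the counts, which matters for Tob1, Btg3 and Tob2. The RefSeq gene of Tob1 begins at 94209842 and spans 5654 bases, against 94211454 and 4042 bases in GENCODE. Btg3 has 3 annotated coding starts, of which 1 falls in the promoter window placed on the outer edge of the gene, and of 2 coding starts of Tob2 none falls there. Other annotated genes share ground with the windows of 4 members, namely Cxadr and Gm49590 with Btg3, Gm49476 with Tob2, Gm26669 with Zfp36l1 and AC132455.1 with Zfp36l2. ChIP-seq reads have no strand, so reads from overlapping genes cannot be told apart.

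Promoter sequences were taken from RefSeq (GRCm38.p6), as 250 bases before and 50 bases after a start site, and 6 of the 7 measured members had one, Zfp36l2 being the exception. The promoters below are those of the members whose gene bodies differed most between genotypes (Tob1 and Btg1) and of those whose TES regions did (Btg2 and Zfp36l1), in each case by the smallest p. Capitals mark 4 motifs on either strand. These are the TATA box with the letters TATAAA, the GC box with the letters GGGCGG, the CCAAT box, and the cyclic AMP response element with the letters TGACGTCA. Each is written along the gene's own strand, 5′ to 3′.
Tob1 (chr11:94211204-94211503, plus strand): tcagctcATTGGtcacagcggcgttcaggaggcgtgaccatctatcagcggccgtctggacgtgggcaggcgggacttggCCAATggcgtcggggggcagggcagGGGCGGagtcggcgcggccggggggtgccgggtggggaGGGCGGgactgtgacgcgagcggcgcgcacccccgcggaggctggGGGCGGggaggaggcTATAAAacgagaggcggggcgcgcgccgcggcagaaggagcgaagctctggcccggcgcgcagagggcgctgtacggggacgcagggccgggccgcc
Btg1 (chr10:96616751-96617050, plus strand): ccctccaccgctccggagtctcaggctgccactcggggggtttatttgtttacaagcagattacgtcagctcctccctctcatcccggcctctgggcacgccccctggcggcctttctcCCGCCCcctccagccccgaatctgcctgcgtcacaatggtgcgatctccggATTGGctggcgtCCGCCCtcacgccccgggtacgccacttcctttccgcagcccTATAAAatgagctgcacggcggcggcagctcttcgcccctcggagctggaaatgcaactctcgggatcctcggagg
Btg2 (chr1:134079106-134079405, minus strand): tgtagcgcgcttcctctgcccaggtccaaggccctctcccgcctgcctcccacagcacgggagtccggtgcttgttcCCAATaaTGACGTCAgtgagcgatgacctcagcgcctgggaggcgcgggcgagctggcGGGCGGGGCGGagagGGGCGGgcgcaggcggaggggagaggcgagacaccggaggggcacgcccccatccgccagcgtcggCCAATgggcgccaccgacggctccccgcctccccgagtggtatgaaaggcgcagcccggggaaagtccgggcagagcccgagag
Zfp36l1 (chr12:80112964-80113263, minus strand): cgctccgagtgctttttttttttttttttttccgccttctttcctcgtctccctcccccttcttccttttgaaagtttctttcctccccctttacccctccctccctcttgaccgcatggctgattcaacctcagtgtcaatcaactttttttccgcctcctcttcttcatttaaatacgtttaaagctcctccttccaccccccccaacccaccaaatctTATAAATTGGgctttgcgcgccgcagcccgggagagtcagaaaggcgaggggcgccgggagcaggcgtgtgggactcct

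TATAAA was present in 3 of these 4 promoters, with its first base 47 bases before the start site of the sequence in Tob1, 26 in Btg1 and 29 in Zfp36l1. For Tob1 that start site is 94211454 and not the outer RefSeq start at 94209842. TATAAA was absent from the sequences of Tob2 and Btg3, the other measured members with one. Of all 32851 promoters in the RefSeq table, 13.6% held TATAAA. Btg2 had no TATAAA but held the only cyclic AMP response element among the members with a sequence, 166 bases before its start, a motif found in 1.79% of all promoters. GGGCGG occurred 3 times in Tob1, 3 times in Btg2 (2 of them sharing a base) and 2 times in Btg1, against 35.7% of all promoters with at least 1, and was missing from the window of Zfp36l1. CCAAT, held by 37.4% of all promoters, was found in all 4, and in Zfp36l1 it shares a base with TATAAA. Of the other measured members with a sequence, Btg3 held CCAAT and Tob2 did not. The CArG box, the site of serum response factor, was searched by name and occurred in 1.63% of all promoters and in none of the 6 measured members with a sequence. The promoter of Zfp36, which had no counts here, held 1. GC content was 75.3% for Tob1, 64.7% for Btg1, 72.0% for Btg2 and 52.0% for Zfp36l1, against a median of 52.7% over the table. These matches are descriptions of the letters in the windows.

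Pol II was strongly concentrated at the start of 5 of the 7 genes. Promoter windows all have the same length, so promoter CPM can be compared between genes. In WT, Btg2 (33.7 CPM), Tob1 (33.5), Btg1 (31.2), Zfp36l1 (30.9) and Zfp36l2 (28.4) stood above 99.4% of all promoters. Tob2 at 2.26 CPM and Btg3 at 0.831 CPM stood far below them, above 23.7% and 5.27% of all promoters. In these genes the window may miss the start in use, so the low counts need not mean a weak promoter. Per base, WT promoters held on average 14.9 times the gene body signal in Btg1, 12.4 times in Tob1, 6.11 times in Zfp36l2, 5.75 times in Zfp36l1 and 5.09 times in Btg2, but 1.42 times in Tob2 and 1.26 times in Btg3. The promoters of Tob2 and Btg3 exceeded their gene bodies per base in 5 of 6 libraries each, and those of the other members in all 6. These per-base values used GENCODE vM21 spans. With the RefSeq span the Btg3 gene body held 2.48 to 4.82 CPM per kilobase, against 0.864 to 5.37 in its promoter window. The promoter window of Btg3 then exceeded the gene body in KO replicate 2 alone.

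**Figure D1:**
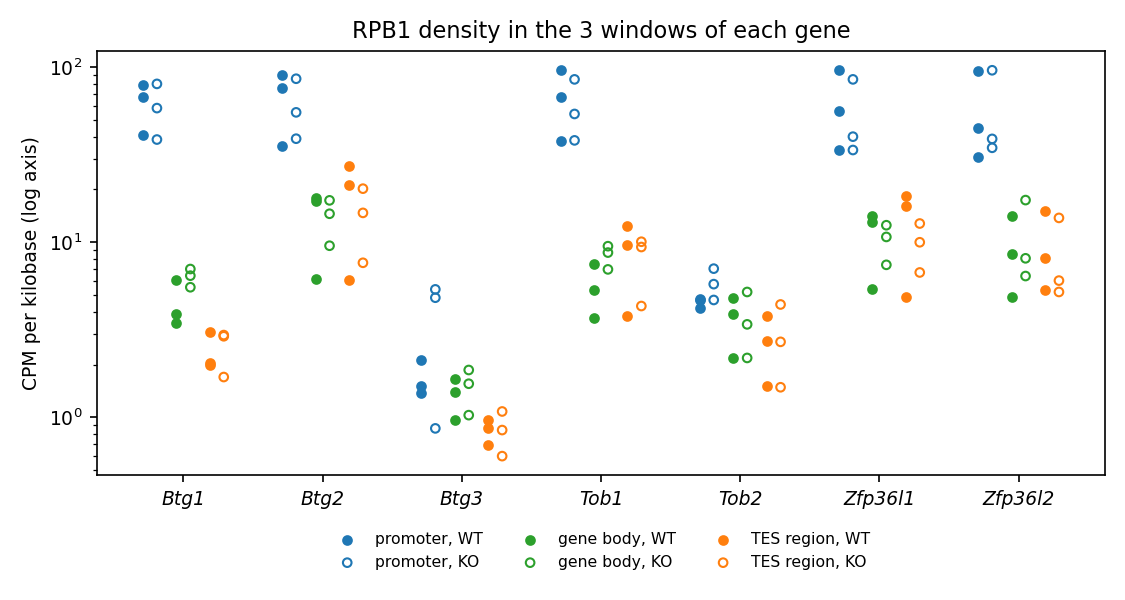
CPM per kilobase, with GENCODE vM21 spans, on a log axis in the promoter, gene body and TES windows of the 7 genes, with 1 point per library (filled for WT, open for KO, n = 3 each). The promoters of 5 genes lie well above their gene bodies and TES regions in every library, while in Btg3 and Tob2 the promoter lies from just below the gene body level to 3.46 and 2.17 times that level.

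Gene body signal per kilobase, averaged over the 6 libraries, fell in the order Btg2 (13.8 CPM per kilobase), Zfp36l1 (10.5), Zfp36l2 (9.88), Tob1 (6.94), Btg1 (5.39), Tob2 (3.60) and Btg3 (1.41). Neighbours in this order were compared within libraries with a two-sided exact sign-flip permutation test over 6 libraries, whose smallest p is 0.03125, adjusted over the 6 neighbouring pairs. Which genes were neighbours was set by the same values that were then tested, so these p describe the order and are no separate support for it. Btg2 was above Zfp36l1 in 6 of 6 libraries (adjusted p = 0.0938) and Tob2 above Btg3 in 6 of 6 (adjusted p = 0.0938). The other 4 neighbouring pairs did not pass, with adjusted p from 0.125 for Tob1 and Btg1 to 0.344 for Zfp36l1 and Zfp36l2. Libraries with the same replicate number deviated together and are not fully independent, and over 3 replicate pairs the smallest p would be 0.25, at which no neighbouring pair could pass. The order also depends on the lengths used, since with RefSeq spans, a choice made after seeing the data, Tob1 (4.89) fell below Btg1 (5.38), Btg3 reached 3.65 and no neighbouring pair passed.

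The TES region was another strong site for part of the group. It held 38.2 CPM in WT for Btg2, 27.4 for Zfp36l1, 19.8 for Zfp36l2 and 18.0 for Tob1, above 96.5% or more of all TES regions, against 4.97 CPM for Btg1, 5.62 for Tob2 and 1.77 for Btg3. The TES region of Tob1 exceeded its gene body per base in 5 of 6 libraries and that of Btg2 in 4 of 6. In Btg1, Tob2 and Btg3 it did so in none of the 6.

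Of the 21 regions, the gene bodies of Tob1 and Btg1 had the smallest p for the difference between genotypes. Tob1, a BTG/TOB family protein that links mRNAs to CCR4-NOT and restrains proliferation, had 20.5, 28.7 and 14.1 CPM in WT libraries 1, 2 and 3 and 33.5, 36.4 and 26.8 CPM in KO libraries 1, 2 and 3. These values rest on 419, 726 and 174 reads in WT and 930, 759 and 379 in KO. Every KO library was above its WT partner, while the groups overlapped through WT replicate 2 and KO replicate 3. The log2 fold change was 0.59 ± 0.11, a 1.50-fold difference (95% interval 1.27 to 1.78), with an adjusted p of 0.101 in limma, just short of the threshold. It ranked 27 by p among 12107 gene bodies. This call depended on the test: Tob1 passed in 5 of 10 other ways of processing, among them the quasi-likelihood test of edgeR (0.64, adjusted p = 0.074) and DESeq2 (0.64, adjusted p = 0.0221), and in 8 of 9 fits that left out a library or a pair, with log2 fold changes from 0.51 to 0.79 over the 9. The fit compares libraries within pairs, so leaving out 1 library also takes its partner out of the comparison. The 9 fits are therefore not 9 separate checks, and in effect leave out pair 1, 2 or 3. With both libraries of a pair left out, Tob1 was called without pair 1 (0.52) and pair 3 (0.52). It was not called without pair 2 (0.79, adjusted p = 0.176 in limma). Without WT replicate 3, the library without Y-linked signal, the log2 fold change of Tob1 was 0.51 with an adjusted p of 0.0337 in limma. The share of all gene bodies called was 0.206% in the reported fit, 0.24% by edgeR, 0.314% by DESeq2 and 1.24% without WT replicate 3. It ran from 0.0496% to 1.26% over the 9 leave-out fits.

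Btg1, an antiproliferative partner of CCR4-NOT known for holding lymphocytes in quiescence, showed the same pattern at a smaller size. Its gene body had 19.3, 33.9 and 21.7 CPM in WT and 31.0, 39.3 and 36.0 CPM in KO. Each KO library was above its partner, by 0.68, 0.21 and 0.73 on the log2 scale for pairs 1 to 3, and WT replicate 2 lay within the range of the KO group. The log2 fold change was 0.49 ± 0.11, a 1.40-fold difference (95% interval 1.19 to 1.65), with rank 62 by p among gene bodies and an adjusted p of 0.178 in limma. It was called by DESeq2 (0.53, adjusted p = 0.0986) and, in limma, without WT replicate 1 (adjusted p = 0.0417), without KO replicate 1 (0.0398) and without KO replicate 2 (0.05). Those leave-out fits called 1.09%, 1.08% and 0.834% of all gene bodies, and DESeq2 called 0.314%, against 0.206% in the reported fit. With both libraries of pair 1, 2 or 3 left out, Btg1 was not called (adjusted p = 0.129, 0.204 and 0.139 in limma).

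The other gene bodies of the BTG and TOB proteins differed little. Btg3, a family member that is a target of p53, had 42.5, 61.7 and 73.7 CPM in WT and 45.6, 68.9 and 82.6 CPM in KO. It was higher in 3 of 3 pairs, but by only 0.14 ± 0.07 (adjusted p = 0.629). Btg2, a p53 target and early response gene, had 66.8, 64.5 and 23.1 CPM in WT and 64.9, 54.4 and 35.8 CPM in KO. Both replicates 3 were low, and pair 3 went up by 0.63 while pairs 1 and 2 went by -0.04 and -0.24, so that the log2 fold change was -0.01 ± 0.11 (adjusted p = 0.989). Tob2, the close relative of Tob1, had 49.5, 40.2 and 22.4 CPM in WT and 53.6, 35.0 and 22.5 CPM in KO. Its log2 fold change was -0.02 ± 0.09 (adjusted p = 0.969), with a 95% interval of the fold from 0.863 to 1.13.

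The ZFP36 gene bodies did not pass the test either. Zfp36l1, which destabilises AU-rich mRNAs, had 71.2, 66.2 and 27.5 CPM in WT and 63.2, 54.1 and 37.5 CPM in KO. Again replicate 3 was low in both genotypes and moved against the other pairs, and the log2 fold change was -0.11 ± 0.10 (adjusted p = 0.817). Zfp36l2, its closest relative, had 53.6, 32.6 and 18.5 CPM in WT and 66.3, 30.8 and 24.4 CPM in KO. It was higher in 2 of 3 pairs, with a log2 fold change of 0.19 ± 0.10 (adjusted p = 0.646).

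Over the 7 gene bodies, 0 were called, against 0.206% of all gene bodies, and 2 (Tob1 and Btg1) had an unadjusted p under 0.05, against 8.41%. By edgeR 1 and by DESeq2 2 were called, as above, against 0.24% and 0.314% of all gene bodies. In no member did the groups separate without overlap, which 2.1% of all gene bodies did. Tob1, Btg1 and Btg3 were higher in KO in 3 of 3 pairs, as were 13.7% of all gene bodies. The median log2 fold change of the members was 0.14, beside -0.01 over all gene bodies. In a bulk culture, more cells with Pol II on a gene and more Pol II per cell cannot be told apart.

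**Figure D2:**
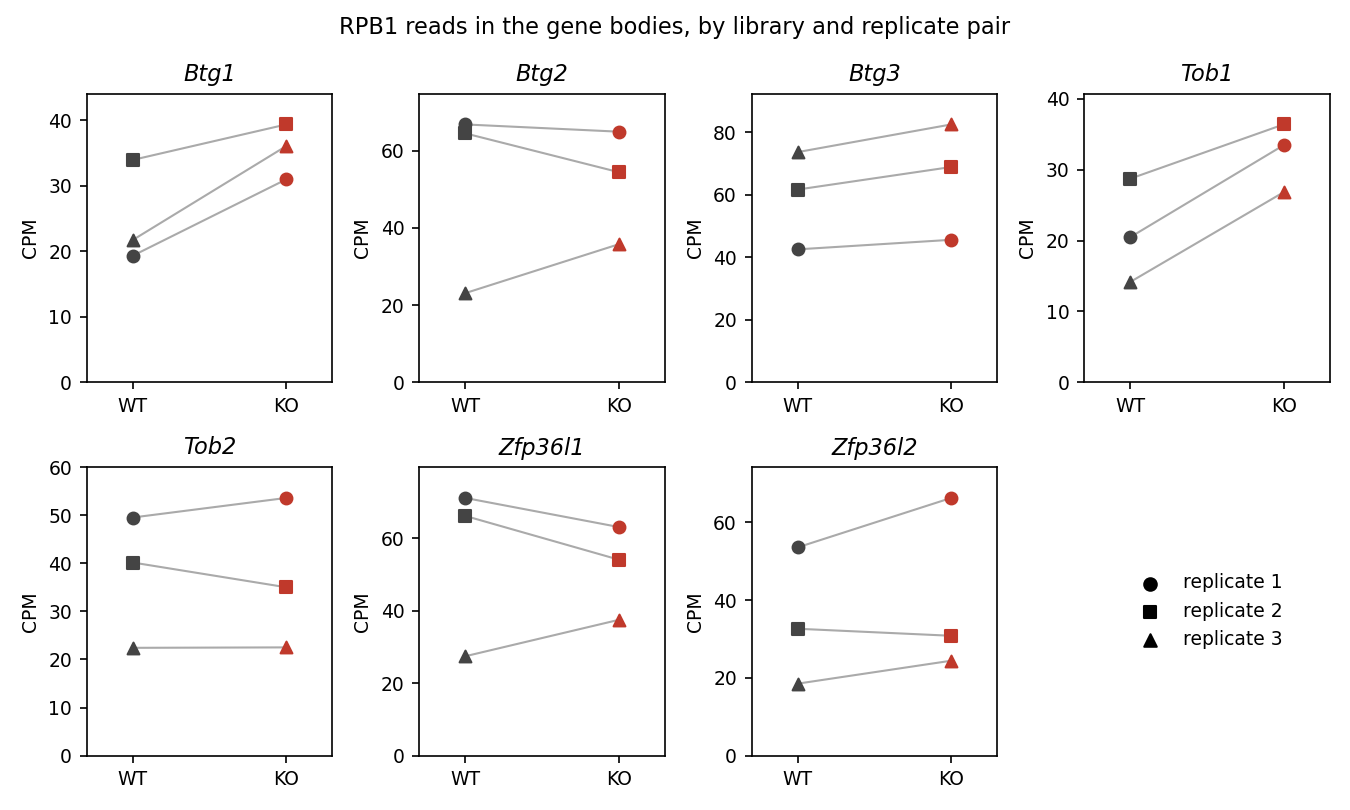
Gene body CPM of each gene in the 6 libraries, on axes that start at 0, with lines joining the WT and KO libraries of a replicate pair. Tob1, Btg1 and Btg3 are higher in KO in 3 of 3 pairs, and in Btg2 and Zfp36l1 only replicate 3, which is low in both genotypes, goes up.

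The gene bodies fell into separate patterns across libraries. Btg2 and Zfp36l1 followed each other most closely (Pearson r = 0.99 of log2 CPM over the 6 libraries), and Tob1 and Btg1 had r = 0.82. Btg3 ran opposite to Tob2 (r = -0.92), and the 21 pairs of members spanned -0.92 to 0.99. The points share the library, including the share of reads in promoters, which was low in replicate 3, and the part of this in the correlations was not tested. The gene bodies most like Tob1 over the 6 libraries included Jund (r = 0.996), a subunit of the AP-1 transcription factor, Klf4 (0.980), a zinc finger transcription factor, Id1 (0.980), an inhibitor of bHLH factors, and Ndufa11 (0.977), a subunit of respiratory complex I. Of 12105 other gene bodies, 24 (0.198%) reached an r of 0.95.

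At the promoters 5 of 7 members had log2 fold changes below 0, and apart from the windows of Btg3 and Tob2 the differences were small. Tob1 had 47.8, 33.7 and 18.9 CPM in WT and 42.5, 27.0 and 19.0 CPM in KO, and Btg1 had 39.5, 33.8 and 20.4 against 40.0, 29.1 and 19.3 CPM. The levels tracked the replicate number far more than the genotype. The log2 fold change was -0.20 ± 0.09 for Tob1 (adjusted p = 0.605 in limma) and -0.09 ± 0.09 for Btg1 (adjusted p = 0.837). Zfp36l1 had 48.0, 27.9 and 16.7 CPM in WT and 42.5, 20.0 and 16.8 CPM in KO, a log2 fold change of -0.24 ± 0.10 (adjusted p = 0.557). Pairs 1 and 2 were lower in KO for both Tob1 and Zfp36l1 and pair 3 differed by 0.0084 and 0.0033 on the log2 scale. Btg2, from 17.7 to 45.3 CPM, gave -0.19 ± 0.10 and Zfp36l2, from 15.4 to 47.9 CPM, gave -0.03 ± 0.10, neither of which passed.

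The promoter windows of Btg3 and Tob2, which held few reads, went the other way. These windows may miss the start in use, so low counts there need not mean a weak promoter. Btg3 had 14, 19 and 13 reads in WT and 12, 56 and 34 in KO, which are 0.684, 0.752 and 1.06 CPM against 0.432, 2.69 and 2.41 CPM. KO replicates 2 and 3 were above all WT libraries and KO replicate 1 below them. The log2 fold change of 1.08 ± 0.40 (adjusted p = 0.494 in limma) was therefore called only in fits without a library of pair 1, where it reached 1.55 without WT replicate 1 (adjusted p = 0.00778), 1.55 without KO replicate 1 (0.00722) and 1.56 without both (0.0437). Without KO replicate 2 it was 0.42 (adjusted p = 0.898). The fits without WT replicate 1, KO replicate 1 or both called 545, 546 and 382 of all regions, against 49 in the reported fit. All of them in effect leave out pair 1. Tob2 had 43, 59 and 29 reads in WT and 98, 60 and 33 in KO, with a log2 fold change of 0.41 ± 0.22 (adjusted p = 0.667). Of the 7 promoters 0 were called, against 0.173% of all promoters, and 3 (Btg3, Zfp36l1 and Tob1) had an unadjusted p under 0.05, against 9.95%. By edgeR and by DESeq2 0 were called. The groups of no member separated, against 2.57% of all promoters, and the median log2 fold change was -0.09 beside 0.03 over all promoters.

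In the TES regions every member was lower in KO in at least 2 of 3 pairs. Over all genes, 34.4% of TES regions had a log2 fold change above 0. The 2 members with the most signal, Btg2 and Zfp36l1, had the smallest p. Btg2 had 57.5, 44.5 and 12.8 CPM in WT and 42.4, 30.8 and 16.0 CPM in KO. Zfp36l1 had 38.3, 33.6 and 10.2 CPM in WT and 26.8, 21.0 and 14.1 CPM in KO. In both genes pairs 1 and 2 were lower in KO, by 0.44 to 0.68 on the log2 scale, whereas pair 3, the one with the WT library that stands apart, was higher by 0.33 and 0.47. The log2 fold changes were -0.38 ± 0.11 for Btg2 (adjusted p = 0.372 in limma) and -0.44 ± 0.14 for Zfp36l1 (adjusted p = 0.426). Without WT replicate 3 both were called, at -0.48 (adjusted p = 0.0193) and -0.59 (0.00699), as they were without KO replicate 3 (0.0201 and 0.00728) and without the pair (0.026 and 0.0115). Those fits called 312, 312 and 298 of all regions, against 49 in the reported fit, and all of them in effect leave out pair 3. Without WT replicate 2 the log2 fold changes of Btg2 and Zfp36l1 were -0.30 and -0.30 (adjusted p = 0.744 and 0.799). Over all 6 libraries DESeq2 gave -0.25 and -0.26 (both with an adjusted p above 0.999), TMM within each kind of region gave -0.23 and -0.28, and the deposited log2 CPM gave -0.21 and -0.24, so their size depended on the libraries and on the processing. The 2 other strong TES regions moved less. Zfp36l2 had 31.4, 16.9 and 11.1 CPM in WT and 28.9, 12.7 and 10.9 CPM in KO, the only TES region of the group that was lower in 3 of 3 pairs (-0.19 ± 0.11, adjusted p = 0.675), and Tob1 had 20.2, 25.9 and 7.96 against 19.7, 21.1 and 9.06 CPM (-0.12 ± 0.11, adjusted p = 0.817).

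Btg1 (0.03 ± 0.18), Tob2 (0.09 ± 0.16) and Btg3 (-0.04 ± 0.25), with 25 to 257 reads in their TES regions, gave log2 fold changes within their errors. Of the 7 TES regions 0 were called, against 0.0248% of all TES regions, and 2 (Btg2 and Zfp36l1) had an unadjusted p under 0.05, against 6.24%. By edgeR and by DESeq2 0 were called. The groups of no member separated (4.09% of all did), and 1 of 7 was lower in 3 of 3 pairs, against 20.8%. The median was -0.12 beside -0.08 over all TES regions.

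**Figure D3:**
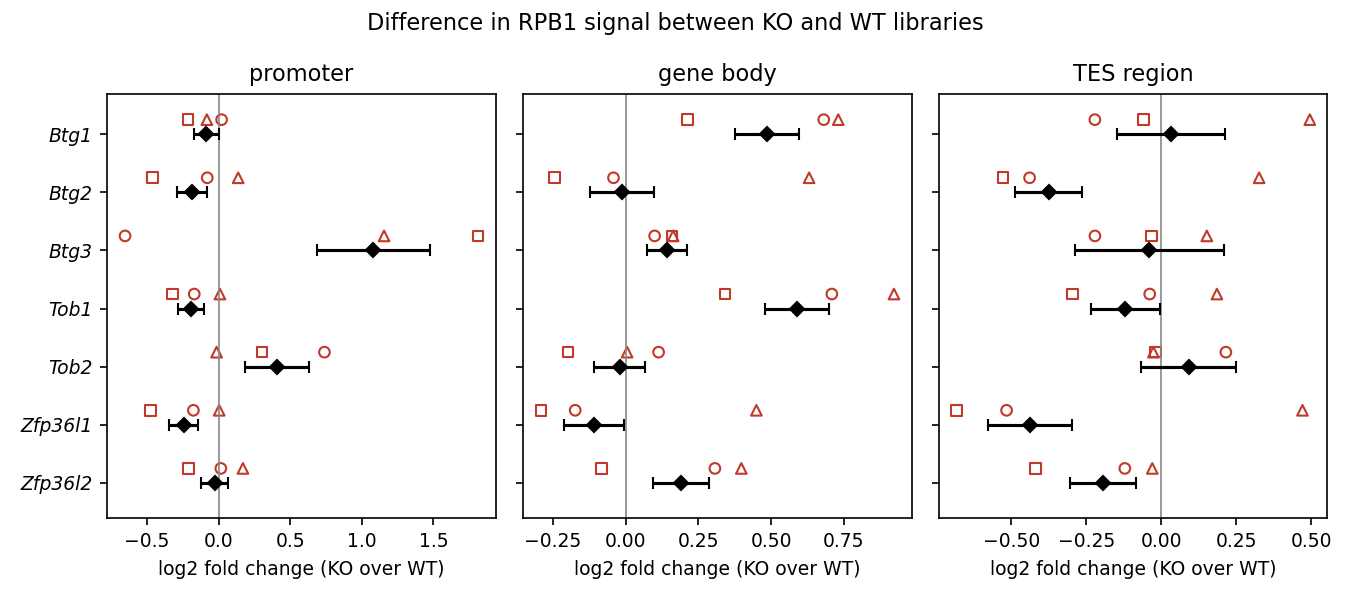
Log2 fold change of KO over WT for the promoter, gene body and TES region of each gene, as the limma estimate ± SE (diamonds) and as the difference of each replicate pair (open circle, square and triangle for pairs 1, 2 and 3), each panel on its own scale. The estimates for the gene bodies of Tob1 and Btg1 lie highest in their panel at 0.59 and 0.49, and the triangle of pair 3 lies apart from the other pairs in the TES regions of Btg2 and Zfp36l1.

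Ratios within a gene do not depend on the scaling between libraries. They divide by the gene body reads already tested above, so they are not a separate check of the gene body differences. The promoter ratios of Tob1 and Btg1 had the smallest p. Their log2 fold changes were 0.59 and 0.49 in the gene body and -0.20 and -0.09 at the promoter. In Tob1 there were 2.34, 1.17 and 1.34 promoter reads per gene body read in WT and 1.27, 0.741 and 0.710 in KO. In Btg1 there were 2.04, 0.997 and 0.940 in WT and 1.29, 0.740 and 0.535 in KO. Each KO library was below its partner in both genes, and replicate 1 was the highest in both genotypes. In WT these ratios stood above 99.0% and 98.1% of all genes. These ratios are of reads and not per base, and a short gene body raises them. By GENCODE the gene bodies of Tob1 and Btg1 are 3841 and 5603 bases long. The log2 ratio differed by -0.82 ± 0.19 in Tob1 (95% interval -1.25 to -0.39, adjusted p = 0.248 in limma) and by -0.63 ± 0.19 in Btg1 (-1.06 to -0.21, adjusted p = 0.303). Neither passed the threshold, in these fits or in any of the 5 alternatives or 9 leave-out fits of the ratio.

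The same reads can be given as shares of a gene's own total, which sum to the whole, so that a higher gene body share alone lowers the others. The gene body of Tob1 held 30.0% ± 6.06 (SD, n = 3) of the reads of the 3 windows in WT and 42.3% ± 6.95 in KO, while the promoter went from 46.1% ± 7.94 to 37.0% ± 6.57 and the TES region from 23.9% ± 5.04 to 20.7% ± 4.25. In Btg1 the gene body held 41.1% ± 9.01 in WT and 51.0% ± 8.72 in KO and the promoter 50.8% ± 10.4 and 41.4% ± 11.3. Both the promoter and the TES share of Tob1 were lower in KO in each pair.

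Btg2, Zfp36l1 and Zfp36l2 had smaller differences of the promoter ratio, of -0.25 ± 0.18, -0.21 ± 0.18 and -0.22 ± 0.18, with adjusted p of 0.662, 0.704 and 0.697. Their ratios ran from 0.370 to 0.884 promoter reads per gene body read. The ratios of Tob2 (0.37 ± 0.22) and Btg3 (0.63 ± 0.40), whose promoter windows held few reads, went up, with adjusted p of 0.582 and 0.609. That of Btg3 was called without WT replicate 1 (1.32, adjusted p = 0.0634), KO replicate 1 (0.0588) or both (0.0537). Without WT replicate 2, KO replicate 2 or both it was 0.12 (adjusted p from 0.993 to 0.995), and without a library of pair 3 it was 0.45 (0.976 to 0.979). The fits without WT replicate 1, KO replicate 1 or both called 370, 366 and 371 promoter ratios over all genes, against 4 in the reported fit. All of them in effect leave out the same pair. Of the 7 ratios 0 were called, against 0.0331% of all genes, 2 had an unadjusted p under 0.05, against 10.7%, and the groups of none separated, against 2.48%. Tob1, Btg1, Btg2, Zfp36l1 and Zfp36l2, 5 of 7, were lower in KO in 3 of 3 pairs, against 14.7% of all genes. The median difference was -0.22 beside 0.01 over all genes.

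The ratio of TES to gene body reads was lower in KO for 6 of 7 members. It shares the gene body reads with the promoter ratio. Tob1 had 0.988, 0.902 and 0.564 TES reads per gene body read in WT and 0.588, 0.580 and 0.339 in KO, a log2 difference of -0.71 ± 0.17 (adjusted p = 0.562 in limma). Zfp36l2 had 0.586, 0.519 and 0.602 in WT and 0.435, 0.411 and 0.447 in KO, so that all WT libraries were above all KO libraries (-0.40 ± 0.17, adjusted p = 0.670). Btg1 separated as well, at 0.216, 0.191 and 0.200 against 0.116, 0.158 and 0.170 (-0.47 ± 0.19, adjusted p = 0.654). Pair 1 differed by -0.90 and pairs 2 and 3 by -0.27 and -0.24, and without WT replicate 1 or KO replicate 1 the difference was -0.25 (adjusted p = 0.914 and 0.913). The log2 fold changes of Zfp36l2 that this ratio combines were 0.19 in the gene body and -0.19 in the TES region.

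In Btg3 the groups also did not overlap, but narrowly, at 0.0281 to 0.0350 in WT and 0.0261 to 0.0280 in KO, on 25 to 46 TES reads a library. Btg2 (-0.33 ± 0.17) was lower in 3 of 3 pairs, Zfp36l1 (-0.24 ± 0.18) in 2 of 3, and Tob2 (0.08 ± 0.17) in 1 of 3. Of the 7 ratios 0 were called, against 0.00828% of all genes, and 3 had an unadjusted p under 0.05, against 7.27%. The groups of 3 members did not overlap, as for 7.85% of all genes, and 5 were lower in KO in 3 of 3 pairs, as were 22.7% of all genes. The median difference was -0.33 beside -0.08 over all genes, 64.2% of which were below 0.

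**Figure D4:**
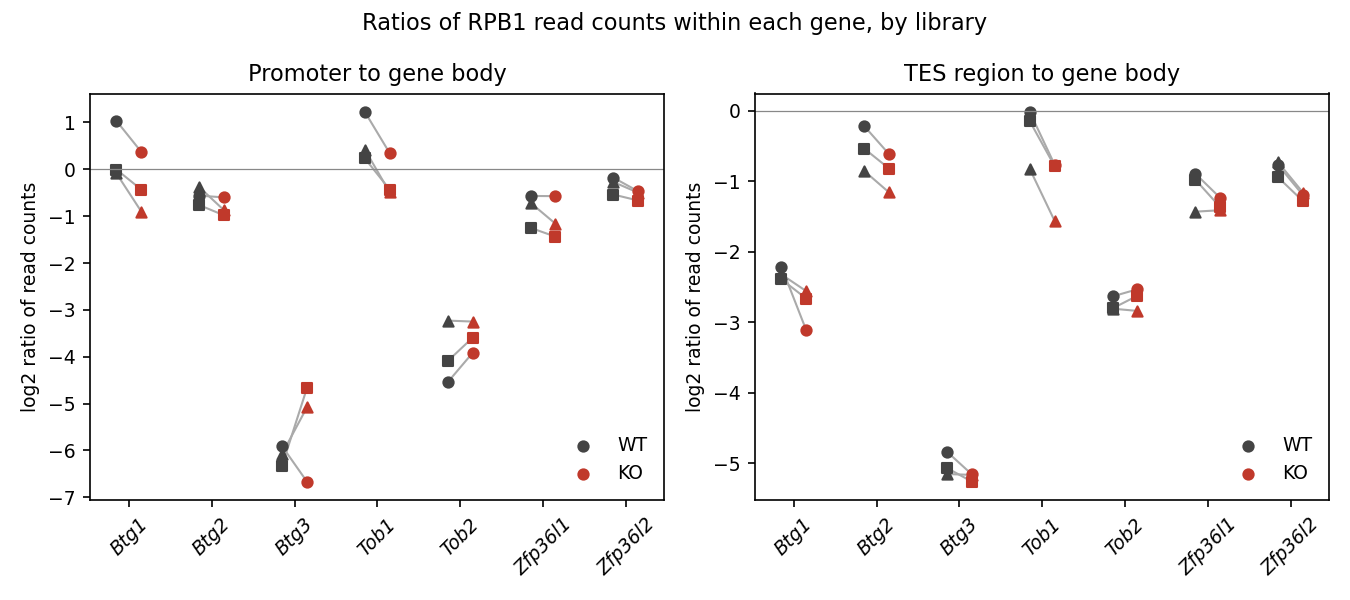
Log2 ratio of promoter to gene body reads (left) and of TES to gene body reads (right) for each gene and library, with lines joining the libraries of a replicate pair (circle, square and triangle for pairs 1, 2 and 3). In Tob1 and Btg1 both ratios are lower in KO in 3 of 3 pairs, and the low promoter ratios of Btg3 and Tob2 go up in 2 of 3. Both ratios of a gene share its gene body reads.

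Pol II on the genes of mRNA decay, among them those of the complex that BTG, TOB and ZFP36 proteins work with, was measured in the same way. No region of these genes was called. Of 79 listed genes of mRNA decay, 68 were measured. Their gene bodies had a median log2 fold change of -0.01, with 5 of 68 at an unadjusted p under 0.05 (2 higher and 3 lower in KO), against 8.41% of all gene bodies. Their promoters had -0.02 with 8 of 68 (5 higher, 3 lower), against 9.95% of all, and their TES regions -0.07 with 5 of 68 (2 higher, 3 lower), against 6.24%. These counts are near the shares over all genes. In limma, edgeR and DESeq2, 0 of these regions had an adjusted p under 0.1. The gene bodies of the CCR4-NOT complex with the smallest p were those of Tnks1bp1, a complex-associated protein (-0.22 ± 0.09, adjusted p = 0.538), and Cnot9, a core subunit (0.14 ± 0.08, adjusted p = 0.676), of 10 of 12 genes measured, 8 of which were below 0. Among other deadenylation and poly(A) binding genes (8 of 9 measured) these were Pabpn1, the nuclear poly(A) binding protein (-0.19 ± 0.08), and Noct, the deadenylase-related Nocturnin (-0.14 ± 0.07).

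For decapping and decay from the 5′ end (17 of 19 measured) they were Lsm7, a subunit of the LSM ring (0.49 ± 0.19, from 3.84 to 7.43 CPM), and Dcp1a, a decapping activator (-0.17 ± 0.07). For the exosome and decay from the 3′ end (16 of 16 measured) they were Dis3l2, an exonuclease (-0.09 ± 0.05), and Exosc2, an exosome subunit (0.14 ± 0.11). Adjusted p of these 6 named gene bodies of 3 lists ran from 0.526 to 0.771. Of 20 other regulators that bind 3′ untranslated regions, 17 were measured. Among them Elavl3, a neuronal protein that stabilises AU-rich mRNAs, had the smallest p, with 49.0 CPM in WT and 61.0 in KO (0.32 ± 0.07, adjusted p = 0.175 in limma). Samd4, a translational repressor, followed at -0.12 ± 0.06 (adjusted p = 0.654). Of the genes related to BTG by name (Btg4, Btg1c and Btg1-ps), 0 of 3 were analysed here.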

How the data were processed

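ChIP-seq libraries of 3 WT and 3 KO NPC samples were compared. The submitters' processing notes name BWA, Trimmomatic, bcl2fastq 2.20, HOMER, Picard, limma, MACS2 and edgeR, and the build GRCm38 (mm10). The authors deposited raw read counts per region, from HOMER, after leaving out genes without signal in KO, and log2 CPM made with TMM and voom. Tests here used the counts, and the log2 CPM only as an alternative. No input or spike-in library was used here.

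All 36321 regions were fitted together with limma-voom 3.58.1 (edgeR 4.0.16 for TMM, R 4.3.3), two-sided, with p adjusted by Benjamini-Hochberg across every region and calls made under 0.1. The replicate pair was a block, since the methods describe pairs and same-numbered libraries deviated together (r from 0.56 to 0.88). No libraries of a group were copies (chi-square per degree of freedom 28.6 to 76.9). Ratios used log2((count + 0.5)/(count + 0.5)) where both regions averaged 10 counts or more, tested with limma under the same block. The median SE of log2 fold changes was 0.09 in gene bodies, 0.17 in promoters and 0.20 in TES regions. Levels per kilobase used GENCODE vM21 spans. The scripts were tested on simulated data. Alternatives were edgeR's quasi-likelihood test, DESeq2 1.42.0, other scalings and filters, and leaving out libraries.

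The members and gene lists were chosen with earlier results of these data known. From each partner list the 2 gene bodies with the smallest p are named, and the 5 gene bodies most like the member with the smallest p, except for an item that is not reported here.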

Additional observations from a re-analysis of the deposited data

How the results depend on the processing

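The count of called member gene bodies, 0 in the reported fit, was 1 with the quasi-likelihood test of edgeR, with DESeq2 size factors, with robust variance estimates and without X- and Y-linked genes (Tob1 each time), 2 with DESeq2 (Tob1 and Btg1), and 0 to 2 when a library or a pair was left out. Over all gene bodies the reported fit called 0.206%. The share was 0.24% with edgeR, 0.314% with DESeq2 and 0.256% with DESeq2 size factors. It was 0.363% with robust variance estimates and 0.503% without X- and Y-linked genes. Leave-out fits called 0.0496% (without pair 2) to 1.26% (without pair 3) of all gene bodies. Of the 9 leave-out fits, that without pair 2 did not call Tob1 (adjusted p = 0.176 in limma). Since the fit compares libraries within pairs, the 9 fits in effect leave out pair 1, 2 or 3. Leaving out libraries gave 0 to 1 calls among promoters, 0 to 2 among TES regions, 0 to 5 among partner genes, and 0 to 1 among promoter ratios. Calls over all regions, 49 in the reported fit, ran from 11 without pair 2 to 546 without KO replicate 1. Calls over all promoter ratios, 4 in the reported fit, ran from 9 without WT replicate 3 to 371 without pair 1. Called partners were Cnot8, Elavl3, Lsm7, Rc3h2 and Skiv2l without WT or KO replicate 1, 3 of these (Elavl3, Lsm7 and Rc3h2) without pair 1, and Elavl3 without pair 3. The neighbouring pairs that passed in the order of levels were 4 with the total of the 3 windows, 0 with WT libraries alone, where 3 libraries cannot go below an exact p of 0.25, and 0 with RefSeq spans.

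Without the replicate block the fit called 0 regions of any gene, Tob1 had 0.60 ± 0.29, and no member reached an unadjusted p under 0.05. Directions that reversed were all of values within about 1 SE of 0. Btg2 gene bodies gave 0.072 with edgeR, 0.091 with DESeq2, 0.11 with the deposited log2 CPM, 0.074 without the block and up to 0.13 in leave-out fits (lowest -0.14). The TES region of Btg3 gave 0.029 with TMM within each kind of region and -0.12 to 0.051 in leave-out fits, and the promoter of Zfp36l2 gave 0.011 without the block and -0.080 to 0.059. Reversals in leave-out fits alone were those of the TES regions of Btg1 (-0.13 to 0.15), Tob1 (-0.18 to 0.033) and Tob2 (-0.021 to 0.15), the gene bodies of Tob2 (-0.13 to 0.10) and Zfp36l1 (-0.23 to 0.00072) and the promoter of Btg1 (-0.17 to 0.0072). The cause was not tested. DESeq2 gave no adjusted p for 3 member regions, and the ratio of Btg3 was not tested with a minimum mean of 30 counts. Depth limits Btg3 and Tob2 most, whose promoters held 12 to 98 reads.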

Other observations

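The partner regions with an unadjusted p under 0.05 outside the gene bodies included the TES regions of Cnot1 (-0.40 ± 0.16), the scaffold of the CCR4-NOT complex, of Noct (-0.38 ± 0.14) and of Paip1 (-0.39 ± 0.17), a partner of poly(A) binding protein, all lower in KO, and those of Exosc8 (0.45 ± 0.16) and Skiv2l (0.50 ± 0.17), an exosome subunit and a helicase of 3′ decay, both higher. At promoters they were Rc3h2 (-0.40 ± 0.11), Dcp1b (-0.41 ± 0.16) and Cnot8 (-0.28 ± 0.13), lower in KO, and Tial1 (0.43 ± 0.14), Celf1 (0.45 ± 0.18), Exosc5 (0.43 ± 0.18), Paip1 (0.46 ± 0.20) and Nanos1 (0.60 ± 0.21), higher. None passed the adjusted threshold in limma, with adjusted p from 0.305 to 0.604, and these regions were chosen after their values were seen.

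The neural stem cell gene bodies with an unadjusted p under 0.05 included Hes1 (0.20 ± 0.09) and Nes (0.19 ± 0.08), higher in KO, and Egfr (-0.15 ± 0.05) and Msi1 (-0.19 ± 0.07), lower, with adjusted p from 0.426 to 0.598 in limma. The neuronal gene body at that level was Tubb3 (0.26 ± 0.10, adjusted p = 0.539).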
